A study of Rattus norvegicus with 9 samples.

Results

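Genes whose transcription is raised by the kinase ERK, or that respond early to growth factors and stress, are described here in kidney tissue. They are the MAP kinase phosphatase genes Dusp1 (ENSMUSG00000024190) and Dusp6 (ENSMUSG00000019960), the Sprouty genes Spry2 (ENSMUSG00000022114) and Spry4 (ENSMUSG00000024427), and the transcription factor gene Etv5 (ENSMUSG00000013089). The others are the early response genes Ier3 (ENSMUSG00000003541), Btg2 (ENSMUSG00000020423), Zfp36 (ENSMUSG00000044786), Klf6 (ENSMUSG00000000078) and Gadd45b (ENSMUSG00000015312). They were chosen by Ensembl identifier from a list, which also gives their symbols, and all 10 were among the 17862 features measured. The deposited files do not pair identifiers with symbols. RNA depleted of ribosomal RNA was sequenced from kidneys of 3 groups, each with 3 libraries and all at 6 weeks of age. The QDG group was hypertensive and received Qingda granule, a Chinese herbal preparation. The Model group was hypertensive without the granule, and the WT group was labelled normal. The labels name the brown rat, while the identifiers carry the prefix of mouse genes. Strain, origin of the hypertension and granule dose were not stated in the sources used here. Nor was it stated that each library came from its own animal, so p-values reflect only the spread among these libraries, which may be technical.

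ERK is the last kinase of a chain that runs from growth factor receptors through RAS, RAF and MEK, and RSK kinases are among its substrates. Active ERK induces genes that switch the chain off again, such as phosphatases that act on ERK itself and Sprouty proteins that act upstream of it. It also induces short-lived early response genes for transcription factors and regulators of RNA stability. The levels of such transcripts are widely used as a readout of recent ERK output, and angiotensin II is a known activator of ERK in kidney cells. ERK phosphorylation was not part of these data, so the link of these 10 genes to ERK is background and not a result.

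None of the 10 genes passed the test (limma, adjusted p under 0.05) in any comparison, where 7.9% of the 12187 features tested passed for Model against WT, 2.47% for QDG against WT and 0.0% for QDG against Model. Dusp1, Dusp6 and Etv5 came closest, with mean levels in Model and in QDG kidneys 1.27 to 1.59 times those in WT kidneys. For Spry2, Spry4, Btg2 and Klf6 the ratio to the WT mean lay between 0.863 and 1.03 in Model kidneys and between 0.890 and 1.13 in QDG kidneys. Gadd45b stood at 0.682 times its WT mean in Model and 0.847 times in QDG, with libraries that overlapped those of WT. QDG and WT libraries did not overlap for Dusp6, Etv5 and Zfp36, which were higher in QDG, and Ier3, which was lower, that is for 4 of 10 genes against 27.7% of features.

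Promoter sequences of the rat genes with the same symbols were taken from RefSeq (GRCr8), where 9 of the 10 symbols had an entry, Spry2 more than 1, and Ier3 none. Within the 250 bases before the annotated start, both strands were searched for the cyclic AMP response element TGACGTCA and its part TGACG, the AP-1 site TGANTCA, the ETS site GGAAGT and the CArG box bound by serum response factor. The 4 promoters shown are those that held TGACGTCA or a CArG box, printed 5′ to 3′ on the strand of the gene with that motif in capitals. They lie at chr10:17184603-17184852 on the plus strand (Dusp1), chr13:48087691-48087940 on the minus strand (Btg2), chr1:92799109-92799358 on the minus strand (Zfp36) and chr17:69458479-69458728 on the minus strand (Klf6).
Dusp1: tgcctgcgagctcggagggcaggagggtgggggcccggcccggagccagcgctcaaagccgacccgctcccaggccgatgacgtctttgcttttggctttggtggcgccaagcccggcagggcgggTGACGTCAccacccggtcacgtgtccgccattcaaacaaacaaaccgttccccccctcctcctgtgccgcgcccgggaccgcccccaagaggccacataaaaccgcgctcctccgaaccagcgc
Btg2: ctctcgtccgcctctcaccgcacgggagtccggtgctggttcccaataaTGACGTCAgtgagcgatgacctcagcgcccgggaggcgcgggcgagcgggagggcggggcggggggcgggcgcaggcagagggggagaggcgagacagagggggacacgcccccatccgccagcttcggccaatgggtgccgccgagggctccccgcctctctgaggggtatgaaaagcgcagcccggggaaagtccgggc
Zfp36: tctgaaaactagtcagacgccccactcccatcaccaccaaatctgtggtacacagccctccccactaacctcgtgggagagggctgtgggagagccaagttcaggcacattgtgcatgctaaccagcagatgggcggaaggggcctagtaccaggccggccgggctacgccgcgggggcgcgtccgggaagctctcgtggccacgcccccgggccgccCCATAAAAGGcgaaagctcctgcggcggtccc
Klf6: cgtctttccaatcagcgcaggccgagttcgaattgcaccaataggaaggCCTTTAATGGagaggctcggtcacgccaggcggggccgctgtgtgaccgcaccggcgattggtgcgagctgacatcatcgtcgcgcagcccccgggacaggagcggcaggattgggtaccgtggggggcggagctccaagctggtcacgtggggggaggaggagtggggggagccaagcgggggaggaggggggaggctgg
Positions are counted in bases from the start, with minus signs upstream of it. TGACGTCA stood at −124 to −117 in Dusp1 and at −201 to −194 in Btg2, and 1.59% of all 33469 rat promoter windows of this length held it. Dusp1 held a further TGACG at −172 to −168, and a window of Spry2 held TGACG at −219 to −215, a motif present in 18.2% of windows. The CArG box CCATAAAAGG lay at −32 to −23 in Zfp36, and CCTTTAATGG at −201 to −192 in Klf6, against 1.497% of windows with a CArG box. GGAAGT was found in the other Spry2 window, at −85 to −80, and in 19.2% of all windows. The windows of Dusp6, Spry4, Etv5 and Gadd45b held none of these letters, and TGANTCA, present in 6.34% of windows, was in none of the entries. A match is a description of the rat sequence and not a binding site.

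The 9 libraries held 26.8 M to 29.4 M recovered reads in the listed features. Levels are in FPKM, reads scaled to the length of the feature and to a total for the library. The 10 genes spanned 1.31 to 45.6 FPKM over all libraries. Ier3 was the most abundant, at 33.5 ± 6.39 FPKM (SD over the 9 libraries), and its lowest library lay above every library of the other genes. Dusp6 (12.6 ± 1.73 FPKM) and Dusp1 (12.4 ± 2.59 FPKM) followed, with overlapping ranges. The next 6 genes, Zfp36 (7.82 FPKM), Klf6 (7.42 FPKM), Btg2 (6.50 FPKM), Spry2 (5.04 FPKM), Etv5 (4.26 FPKM) and Gadd45b (3.50 FPKM), each overlapped their neighbour in this order of mean levels. Spry4 was lowest, at 1.66 ± 0.179 FPKM, with every library below those of the other 9 genes. Ier3 lay above 91.6% of the 17862 features by mean level and Spry4 above 40.7%. All 10 genes exceeded the limit of a mean of 1 FPKM over the 9 libraries that was set for testing.

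**Figure D1:**
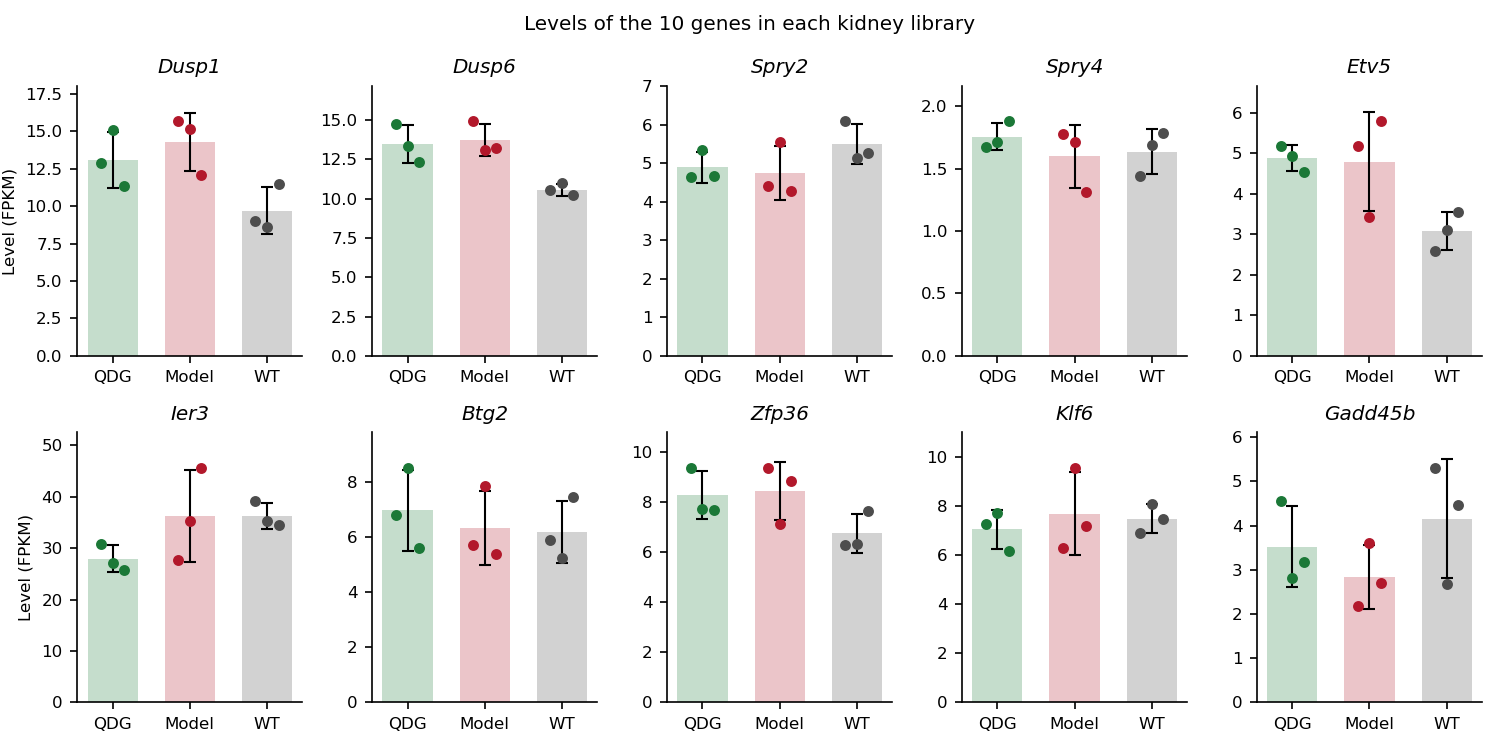
Level in FPKM (y axis, from 0) of each of the 10 genes in the QDG, Model and WT groups. Points are the 3 libraries of a group in replicate order, bars are group means and error bars the SD; Dusp6 shows all WT libraries (10.2 to 10.96 FPKM) below all Model and QDG libraries (12.3 to 14.9 FPKM).

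Dusp1 encodes a nuclear phosphatase that inactivates several MAP kinases, and Dusp6 a cytoplasmic phosphatase selective for ERK. Dusp1 stood at 12.9, 15.1 and 11.3 FPKM in QDG 1 to 3, at 15.7, 15.2 and 12.1 FPKM in Model 1 to 3, and at 9.01, 8.59 and 11.5 FPKM in WT 1 to 3. All Model libraries lay above all WT libraries, by a narrow margin between Model 3 and WT 3, while QDG 3 lay just below WT 3. The mean was 14.3 ± 1.93 FPKM in Model and 9.69 ± 1.56 FPKM in WT (SD, n = 3 each), a log2 difference of 0.52 with an SE of 0.15. This did not pass after adjustment over all features tested (limma adjusted p = 0.0552). Without WT 3, the highest WT library, the log2 difference was 0.64 and passed (limma adjusted p = 0.0281). Without WT 2, the lowest WT library, it was 0.45 and did not pass (limma adjusted p = 0.146). Nor did it pass with any other library left out. QDG averaged 13.1 ± 1.87 FPKM (SD, n = 3), a log2 difference of 0.40 from WT (limma adjusted p = 0.159) and of −0.12 from Model (limma adjusted p = 0.733).

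Relative to its mean, Dusp6 had the smallest WT SD of the 10 genes (3.53%). Its levels were 14.7, 13.4 and 12.3 FPKM in QDG 1 to 3, 14.9, 13.1 and 13.2 FPKM in Model 1 to 3, and 10.5, 10.96 and 10.2 FPKM in WT 1 to 3. Neither hypertensive group overlapped WT. Model averaged 13.7 ± 1.04 FPKM and WT 10.6 ± 0.373 FPKM (SD, n = 3 each), a log2 difference of 0.35 with an SE of 0.10 that did not pass (limma adjusted p = 0.0599). QDG averaged 13.5 ± 1.22 FPKM, a log2 difference of 0.32 from WT (limma adjusted p = 0.112). The difference between QDG and Model was −0.026, with a 95% interval from −0.25 to 0.20, and its sign turned with quantile normalization, removal of the length trend and scaling by total reads.

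The Sprouty proteins Spry2 and Spry4 inhibit signalling from growth factor receptors to ERK. Spry2 stood at 4.65, 5.35 and 4.67 FPKM in QDG 1 to 3, at 4.397, 5.54 and 4.29 FPKM in Model 1 to 3, and at 6.09, 5.14 and 5.26 FPKM in WT 1 to 3. The groups overlapped, with 2 of the 3 QDG and 2 of the 3 Model libraries below every WT library. The log2 difference was −0.18 for Model against WT (95% interval −0.43 to 0.070, limma adjusted p = 0.320) and −0.14 for QDG against WT (limma adjusted p = 0.505). For Model against WT it was −0.33 after removal of the length trend, −0.12 without WT 1 and −0.28 without Model 2, and for QDG against WT it was −0.076 without WT 1. Spry4 stood at 1.68, 1.71 and 1.88 FPKM in QDG 1 to 3, at 1.78, 1.71 and 1.31 FPKM in Model 1 to 3, and at 1.44, 1.69 and 1.78 FPKM in WT 1 to 3. Its groups overlapped throughout, and Model 3 and WT 1 were its lowest libraries. The log2 difference of Model from WT was −0.023 (95% interval −0.26 to 0.22, limma adjusted p = 0.913), and its sign turned with quantile normalization. That of QDG from WT was 0.066 (95% interval −0.17 to 0.31, limma adjusted p = 0.764).

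Etv5 encodes an ETS transcription factor induced by ERK signalling, which acts in branching of the ureteric bud during mouse kidney development. It stood at 5.18, 4.93 and 4.55 FPKM in QDG 1 to 3, at 5.18, 3.42 and 5.80 FPKM in Model 1 to 3, and at 2.59, 3.10 and 3.55 FPKM in WT 1 to 3. All QDG libraries lay above all WT libraries, while Model 2 lay among the WT libraries. QDG averaged 4.89 ± 0.316 FPKM and WT 3.08 ± 0.476 FPKM (SD, n = 3 each), a log2 difference of 0.53 with an SE of 0.16 that did not pass (limma adjusted p = 0.0963). Model averaged 4.80 ± 1.23 FPKM, a log2 difference from WT of 0.49 (limma adjusted p = 0.0800). Leaving out Model 2, the lowest Model library, gave a log2 difference of 0.67 for Model against WT that passed (limma adjusted p = 0.0179). Without Model 3, the highest Model library, it was 0.36 and did not pass (limma adjusted p = 0.233). Nor did it pass with any other library left out. Without Model 2 the difference of QDG from WT also passed, although Model libraries enter it only through the shared estimate of the spread (limma adjusted p = 0.0327). With only the QDG and WT libraries in the fit the limma adjusted p of that difference was 0.0446. The difference passed under none of the other alternatives. The limma adjusted p was 0.271 without QDG 1 and 0.269 without WT 1.

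Ier3 encodes an early response protein that prolongs ERK activity and affects cell survival. It stood at 30.9, 27.2 and 25.8 FPKM in QDG 1 to 3, at 27.8, 35.3 and 45.6 FPKM in Model 1 to 3, and at 39.2, 35.3 and 34.4 FPKM in WT 1 to 3. All QDG libraries lay below all WT libraries, while the Model libraries spread to both sides of the WT range. QDG averaged 27.9 ± 2.64 FPKM and WT 36.3 ± 2.53 FPKM (SD, n = 3 each), a log2 difference of −0.37 with an SE of 0.16 that did not pass (limma adjusted p = 0.230). Model averaged 36.2 ± 8.98 FPKM. The difference of QDG from Model was −0.34 (95% interval −0.70 to 0.023, limma adjusted p = 0.381), and that of Model from WT was −0.028 (limma adjusted p = 0.929), with −0.25 after removal of the length trend and −0.20 after quantile normalization. The log2 difference of QDG from Model was −0.16 without Model 3, the highest library, −0.51 without Model 1, and −0.14 after removal of the length trend.

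Btg2 encodes an antiproliferative protein that promotes shortening of poly(A) tails, and Zfp36 encodes tristetraprolin, which binds AU-rich messenger RNAs and speeds their decay. Btg2 stood at 6.81, 8.52 and 5.60 FPKM in QDG 1 to 3, at 5.73, 7.86 and 5.39 FPKM in Model 1 to 3, and at 5.88, 5.25 and 7.44 FPKM in WT 1 to 3. Its SD within groups, 1.13 to 1.47 FPKM, was larger than every difference between group means. The log2 difference was 0.14 for QDG against WT (limma adjusted p = 0.665) and 0.023 for Model against WT (limma adjusted p = 0.946), and that of Model turned sign with removal of the length trend and with scaling by total reads. Zfp36 stood at 9.37, 7.73 and 7.69 FPKM in QDG 1 to 3, at 9.36, 7.12 and 8.84 FPKM in Model 1 to 3, and at 6.30, 6.31 and 7.65 FPKM in WT 1 to 3. All QDG libraries lay above all WT libraries, by a narrow margin between QDG 3 and WT 3, and Model 2 lay within the WT range. The log2 difference was 0.26 for QDG against WT (limma adjusted p = 0.278) and 0.28 for Model against WT (limma adjusted p = 0.181).

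Klf6 encodes a zinc finger transcription factor induced early by injury and growth factors, and Gadd45b a stress-induced protein that binds and activates a kinase upstream of JNK. Klf6 stood at 7.27, 7.73 and 6.19 FPKM in QDG 1 to 3, at 6.31, 9.57 and 7.20 FPKM in Model 1 to 3, and at 6.92, 8.09 and 7.48 FPKM in WT 1 to 3. Its highest and next to lowest libraries were both Model libraries. The log2 difference of QDG from WT was −0.078 (limma adjusted p = 0.788), and that of Model from WT was 0.017 (limma adjusted p = 0.949), with a sign that turned under quantile normalization, removal of the length trend and scaling by total reads. Gadd45b stood at 4.55, 2.82 and 3.18 FPKM in QDG 1 to 3, at 2.19, 3.61 and 2.70 FPKM in Model 1 to 3, and at 5.31, 2.68 and 4.47 FPKM in WT 1 to 3. It was the least even gene, with a 2.43-fold range over the 9 libraries and a WT SD of 32.3% of the mean. Its log2 difference of Model from WT was −0.41 (95% interval −0.89 to 0.076, limma adjusted p = 0.249), and that of QDG from WT −0.17 (limma adjusted p = 0.682). Leaving out WT 1 gave −0.24 for Model and −0.0091 for QDG against WT, and leaving out WT 2 gave −0.63 for Model and −0.40 for QDG against WT. Gadd45b also rested on the fewest reads, 100 to 223 per library, for which counting alone gives an error of at least 6.70%. The other genes had at least 167 reads in every library.

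The comparison of Model with WT asks whether these genes differ in the hypertensive kidney. Of the 10 genes, 0 passed (limma, adjusted p under 0.05), where 7.9% of the 12187 features tested did (6.01% higher, 1.9% lower). At an unadjusted p under 0.05 there were 3 (Dusp1, Dusp6 and Etv5, all higher), against 28.0% of features (17.8% higher, 10.2% lower). The libraries of the groups did not overlap for 2 genes (Dusp1 and Dusp6), against 28.2% of features (17.3% higher, 10.9% lower). Voom on recovered reads called Dusp1 when scaled by the median ratio (adjusted p = 0.0454) and 0 genes when scaled by total reads. Ordered by p, Dusp1 ranked 1117 and Dusp6 1220 among the features, of which 963 passed. The median log2 difference of the 10 genes was 0.020, the same as that of all features tested to this precision, and 6 of the 10 were above 0, against 53.0% of features. Neither strain nor processing batch was stated in the sources used here, so hypertension and any other difference between the groups cannot be told apart. Fewer cells of a type and less RNA per cell likewise cannot be told apart in whole tissue.

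**Figure D2:**
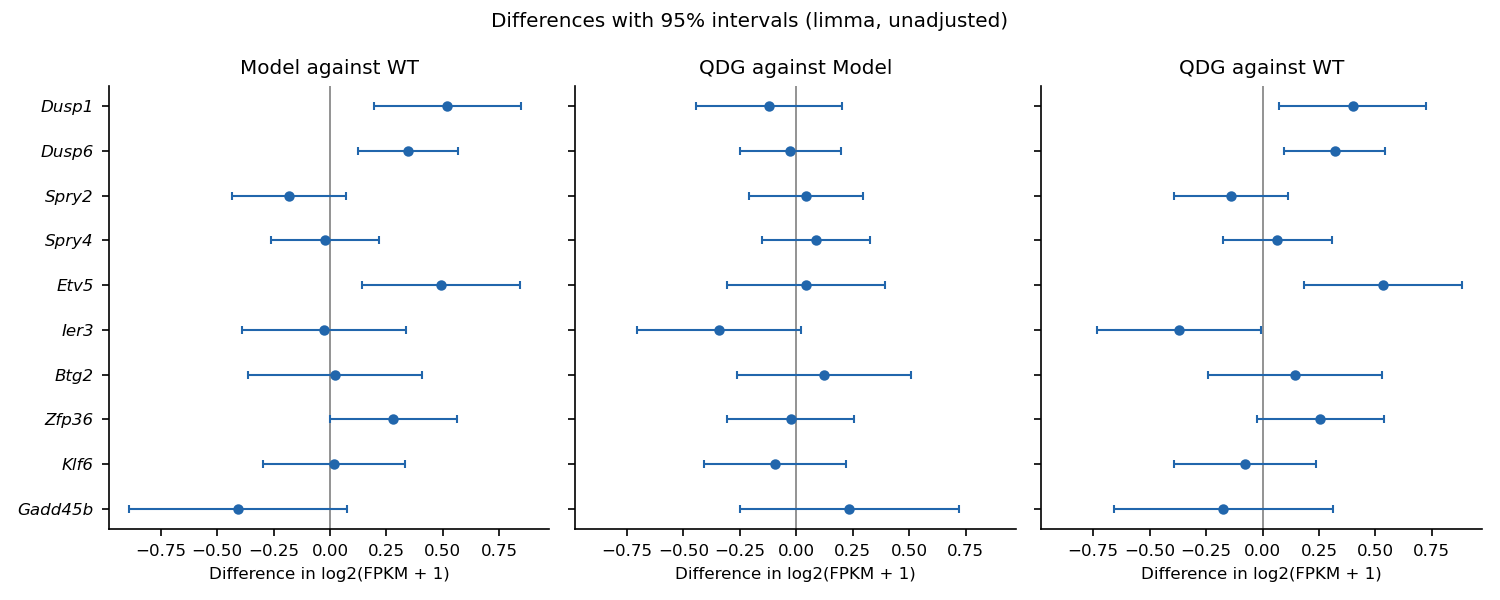
Difference in log2(FPKM + 1) of each gene (x axis) for Model against WT, QDG against Model and QDG against WT, with unadjusted 95% intervals from limma. The intervals of Dusp1, Dusp6 and Etv5 lie above 0 in both comparisons with WT, and every interval for QDG against Model includes 0.

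The comparison of QDG with Model asks whether the granule altered these genes in the hypertensive kidney. Again 0 of the 10 passed (limma), and 0.0% of all features did. At an unadjusted p under 0.05 there were also 0 of 10, against 13.9% of features (4.27% higher, 9.64% lower), and voom called 0 under both scalings. No gene had QDG and Model libraries without overlap, against 26.7% of features (10.4% higher, 16.3% lower). The median log2 difference was 0.0089 over the 10 genes and −0.020 over all features. The 95% intervals of the 10 genes reached a median of 0.32 to either side on the log2 scale, so smaller differences were generally not resolved. For Dusp1 the interval ran from −0.45 to 0.20, and for Etv5 from −0.31 to 0.39.

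The comparison of QDG with WT asks how these genes stood in treated animals relative to normal ones. It shares its WT libraries with the comparison of Model with WT, so similar values in both are not independent. Of the 10 genes, 0 passed (limma), against 2.47% of features (1.63% higher, 0.837% lower), and voom called 0 under both scalings. At an unadjusted p under 0.05 there were 4 (Dusp1, Dusp6 and Etv5 higher, Ier3 lower), against 21.3% of features (11.8% higher, 9.51% lower). The libraries did not overlap for 4 genes, with Dusp6, Etv5 and Zfp36 higher and Ier3 lower, against 27.7% of features (15.2% higher, 12.5% lower). The median log2 difference was 0.11 over the 10 genes and −0.0012 over all features. The QDG mean lay between the Model and WT means for Dusp1, Dusp6, Spry2, Zfp36 and Gadd45b and outside them for the other 5 genes.

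**Figure D3:**
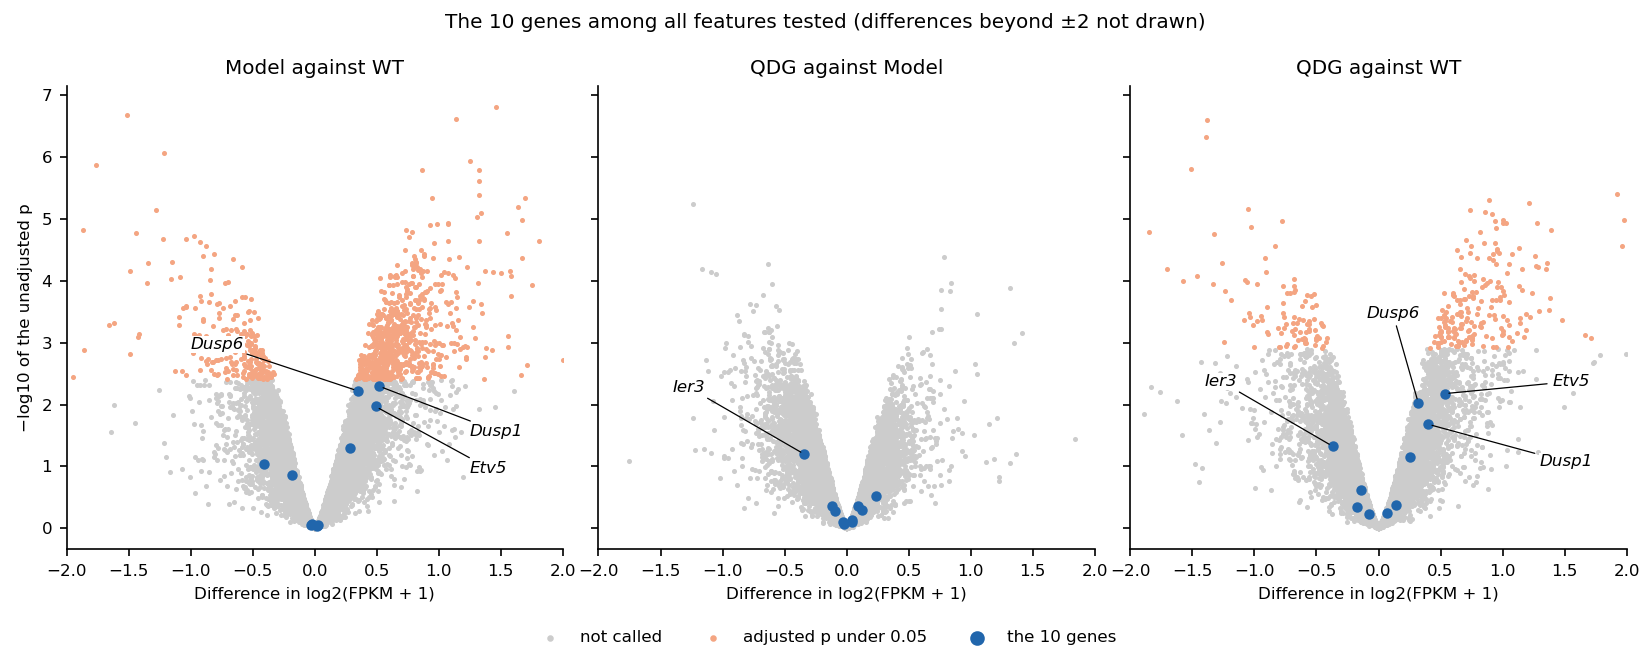
Difference in log2(FPKM + 1) (x axis) against the −log10 of the unadjusted p from limma (y axis) for the 12187 features tested, in 3 comparisons, with differences beyond 2 in size not drawn. Features with an adjusted p under 0.05 are orange and the 10 genes are blue; none of the 10 is among the called features, and Dusp1 and Dusp6 lie just under them in Model against WT.

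Nor did the 10 genes vary as a block from library to library. Over the 9 libraries, 23 of the 45 pairs of genes had a Pearson's r above 0 for log2(FPKM + 1), with a median of 0.027. Etv5 and Zfp36 were the most alike (r = 0.90, Spearman's rho = 0.93), with r = 0.82 in deviations from the group means. Dusp6 ran with Etv5 (r = 0.80), Zfp36 (r = 0.79) and Dusp1 (r = 0.77), but less so within groups (r = 0.30, 0.53 and 0.20 in the same order). Dusp1 and Btg2, whose promoters hold TGACGTCA, had r = 0.57 overall and r = 0.83 within groups. Spry2 ran opposite to Etv5 (r = −0.85, and −0.83 within groups) and to Zfp36 (r = −0.81, and −0.70 within groups), and Spry4 opposite to Ier3 (r = −0.85, and −0.88 within groups). Zfp36 and Klf6, whose promoters hold a CArG box, had r = −0.40, and −0.50 within groups. These values describe 9 points that share library, depth and group, and the pairs named are the most extreme of 45 or those with a shared motif. Outside the 10 genes, the features most like their mean standardised level were ENSMUSG00000037032 and ENSMUSG00000029675 (r = 0.94 each), the highest of all tested features. A highest value among that many features over 9 libraries is a description and not a result. The 10 genes themselves ran from r = −0.43 (Ier3) to 0.70 (Btg2) with the mean of the other 9.

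**Figure D4:**
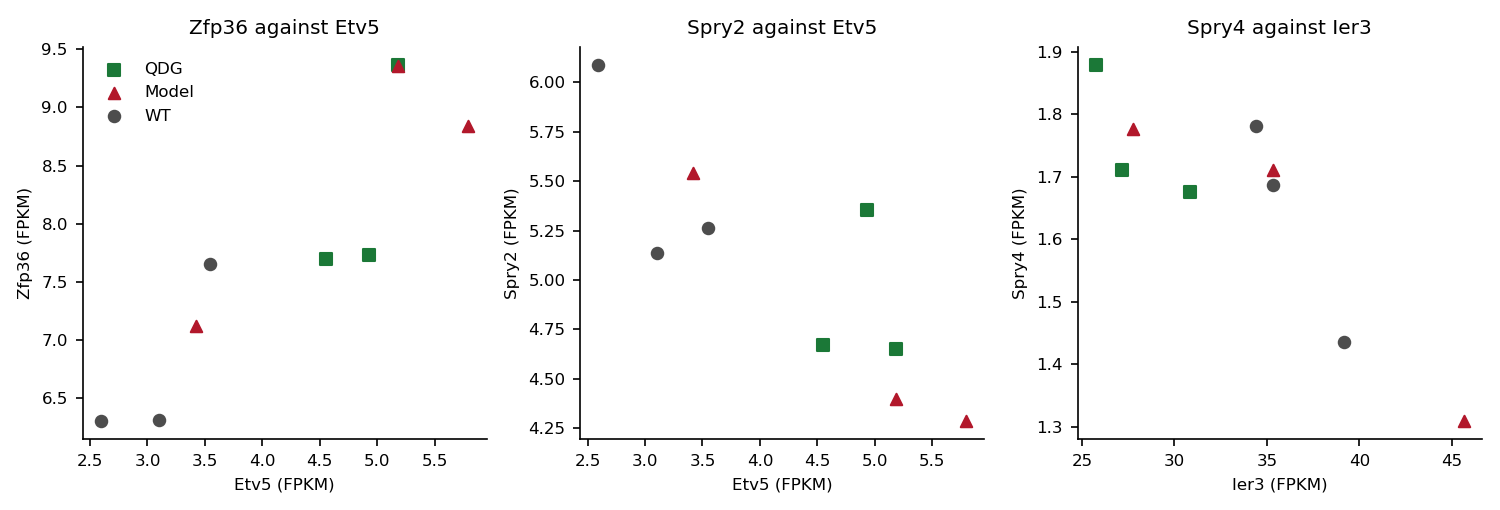
Levels in FPKM of 3 pairs of genes over the 9 libraries, with QDG as squares, Model as triangles and WT as circles. Zfp36 is high where Etv5 is high (r = 0.90), Spry2 is low where Etv5 is high (r = −0.85) and Spry4 is low where Ier3 is high (r = −0.85); QDG 1 and Model 1 nearly coincide in the plot of Zfp36 against Etv5.

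Single libraries had their own profiles. Model 2 stood above the mean of the 9 libraries for 8 of the 10 genes and QDG 3 for 2 of them. In Model 2, Klf6, Dusp1 and Btg2 were high (log2 deviations of 0.34, 0.30 and 0.26) while Etv5 was low (−0.22). Model 3 was highest for Ier3 and Etv5 (0.46 and 0.40) and lowest for Spry4 (−0.20). WT 1 was lowest for Etv5 (−0.52) and highest for Gadd45b (0.52). Spread within groups was larger for these genes than for features at large in QDG and Model, and smaller in WT. Their median SD was 10.3% of the mean in QDG, 18.5% in Model and 11.2% in WT, against 7.88%, 12.4% and 15.8% for all features tested in the same order.

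**Figure D5:**
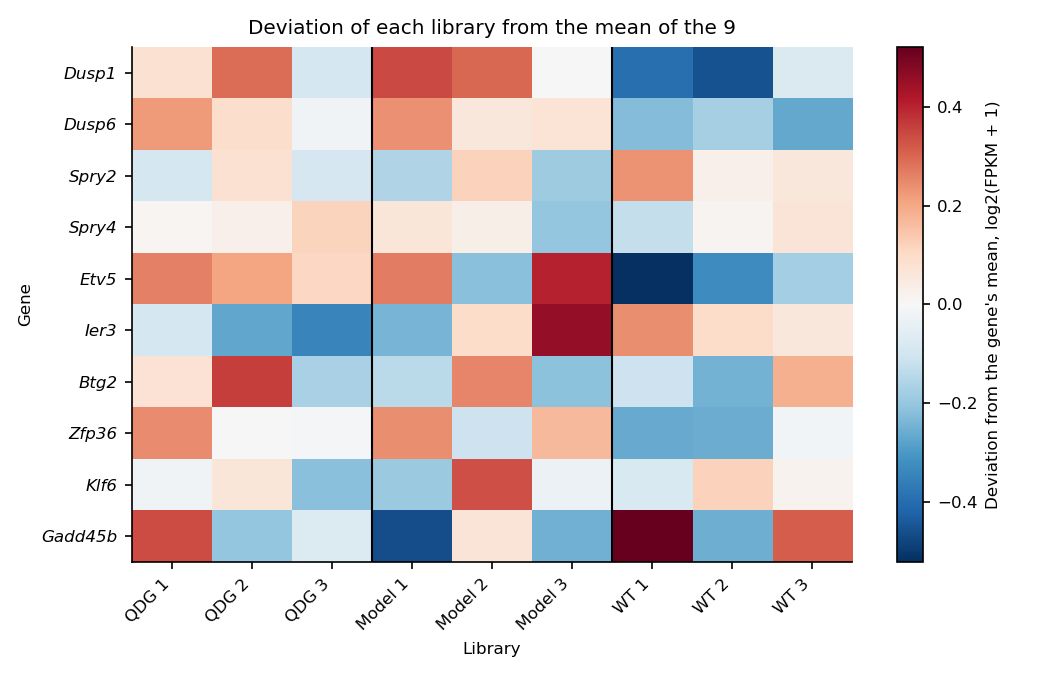
Deviation of each library from the mean of the 9 libraries, in log2(FPKM + 1), for each gene (rows) and library (columns, grouped as QDG, Model and WT). Red is above and blue below the mean; Dusp1, Dusp6, Etv5 and Zfp36 are below it in all 3 WT libraries, and Ier3 in all 3 QDG libraries.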

How the data were processed

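The authors deposited 1 value per feature and library, for 9 libraries and 17862 features. The unit is not written in the files and was taken to be FPKM, because the deposited values move in steps of whole reads divided by length and a library total. Whole reads were recovered for 17862 features (tolerance 0.001 read or a relative 3e-08). The implied totals were 0.937 to 1.11 times the recovered reads and lay within 0.571% of median-ratio scaling, so the deposited values already carry a scaling between libraries. The submitters' processing notes name limma. No aligner, build or annotation was named in the sources used here.

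Testing required a mean of 1 FPKM or more and was done with limma 3.58.1 (R 4.3.3) on log2(FPKM + 1), with an intensity trend and all 9 libraries, 3 in each of 3 groups, in 1 fit. This scale understates changes of low genes. Tests were two-sided, with Benjamini-Hochberg adjustment over 12187 features, at a threshold of 0.05. The procedure was tested on simulated data with independent noise per feature and library, which lacks any variation shared among the features of a library. Alternatives were a pseudocount of 0.1, a limit of 5 FPKM or none, quantile normalization, median-ratio scaling, removal of the length trend (loess, span 0.5), voom on recovered reads, 2-group fits, a replicate block and leaving out each library. All 10 genes were named. The genes and lists were chosen with earlier results of these data known. The 11 lists of other pathway genes and cell type markers, written in symbols, matched 0 identifiers and were not used, so the tissue was not checked against its markers. Counting errors cover counting only.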

Additional observations from a re-analysis of the deposited data

How the results depend on the processing

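The count of the 10 genes called for Model against WT was 0, 2 with a limit of 5 FPKM (Dusp1 and Dusp6, of 7 tested), 1 with voom scaled by the median ratio (Dusp1), and 0 to 1 with a library left out (Dusp1 without WT 3, Etv5 without Model 2). At these settings 883 of 6666, 1103, 1529 and 1081 of 12187 features passed in the same order, against 963 in the fit reported. For QDG against WT it was 0, 1 with only those groups fitted (Etv5, with 486 features) and 0 to 1 with a library left out (Etv5 without Model 2, with 515 features), against 301 features in the fit reported. Between QDG and Model it was 0 under every alternative run. The limit of 5 FPKM excludes Etv5, Spry4 and Gadd45b. For all calls that came or went, the cause was not tested.

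Of 561 pairs of gene difference and alternative, 521 kept sign and side of the threshold, 7 passed it and 33 turned sign, none of them called. For Model against WT, Btg2 stood at −0.081 without the length trend and −0.015 with voom scaled by total reads, with −0.12 to 0.14 when a library was left out. Klf6 stood at −0.0097 after quantile normalization, −0.0042 without the length trend and −0.020 with total reads, with −0.13 to 0.13 when a library was left out. Spry4 stood at 0.010 after quantile normalization, with −0.078 to 0.060 when a library was left out, and Ier3 ranged from −0.20 to 0.14 with a library left out and stood at −0.25 without the length trend. For QDG against Model, Dusp6 stood at 0.039 after quantile normalization, 0.037 without the length trend and 0.010 with total reads, with −0.088 to 0.033 when a library was left out. Zfp36 stood at 0.0065, 0.022 and 0.011 in the same order, with −0.13 to 0.047. With a library left out, Btg2 ranged from −0.014 to 0.27, Etv5 from −0.14 to 0.17, Klf6 from −0.21 to 0.054 and Spry2 from −0.014 to 0.14 in that comparison, and Klf6 from −0.14 to 0.0021 for QDG against WT. Dusp1, Dusp6, Etv5 and Zfp36 stayed above 0 in both comparisons with WT under all alternatives run, and Spry2 and Gadd45b stayed below 0 in both.

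Deviations from the group means correlated at −0.33 to 0.14 between libraries of equal number and at −0.24 to 0.43 between libraries of unequal number. Deviations within a group of 3 sum to 0, so these values cannot settle whether equal numbers mark a shared litter, batch or day. The labels do not say so. With a replicate block 0 of the 10 genes passed in each comparison, and among all features 533 did for Model against WT (963 without it) and 154 for QDG against WT (301 without it). The number of features called for Model against WT was 144 with those groups alone and 195 to 1529 with a library left out. Between QDG and Model it was 1 with those groups alone and 0 to 3 with a library left out. For QDG against WT it was 486 with those groups alone, 515 after quantile normalization, 521 without the length trend and 39 to 775 with a library left out. Depth limits Spry4 and Gadd45b: counting error in QDG was 6.29% to 6.61% for Spry4, whose QDG SD was 6.20% of the mean, and at least 6.70% in every library for Gadd45b, whose Model SD was 25.4% of the mean.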
